A study of Homo sapiens with 15 samples.

Results

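Of the 15 RNA-seq libraries of the series, 6 are compared here, 3 from U87MG cells that received the ID3 overexpression lentivirus and 3 from U87MG cells that received a control lentivirus coding for GFP. U87MG is an established human glioblastoma line, and both groups were grown in DMEM with 10% FBS and collected after 24 h. The other 9 libraries, 3 each from cells given ID1, ID2 or ID4 virus under the same conditions, entered the shared fit and served to find the genes whose level in ID3 libraries stood apart. The study asked how LMO2 in the cytoplasm acts in glioma stem cells, and it proposes ID1 as a target of LMO2 and STAT3 signalling. It used RNA-seq of this series for an ID1 signature, and the ID3 libraries were deposited with that experiment. Libraries were chosen by their labels alone, and the 12755 of 25737 listed entries with a mean of 10 or more counts over the 6 libraries were tested. The promoter of the virus, any selection, and whether the 3 libraries of a group came from separate cultures are not given in the sources used here, so p-values measure only the spread between these libraries, which may be technical.

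ID proteins are helix-loop-helix proteins without a DNA-binding region. They pair with the E proteins TCF3, TCF4 and TCF12 and keep them from binding E-box sequences with their tissue-specific partners, and they are known as targets of BMP and SMAD signalling. In glioma they have been linked to proliferation, invasion and a stem-like state.

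The QuantSeq kit reads the 3′ ends of polyadenylated transcripts, and levels are given as CPM. These are counts scaled to the total of each library after adjustment by its TMM factor (0.977 to 1.03). Total counts were 11949100 to 14198548 in GFP and 13369680 to 14428920 in ID3 libraries. Scaled to the total alone, without this factor, 3 counts corresponded to 0.198 to 0.271 CPM over all 15 libraries. This limit covers counting error only. Of the markers of the line, VIM reached at least 3516 CPM and CD44 at least 552 CPM in all 6 libraries, and neither passed. Of the same list, NES, at 21.8 to 26 CPM in GFP and 17.7 to 21 CPM in ID3, and EGFR, at 31.2 to 32.6 CPM and 25 to 29.8 CPM, were lowered, whereas SOX2, OLIG2, PROM1 and FABP7 were at or near 0. The astrocyte markers GFAP and AQP4 were at or near 0 too. The immune marker PTPRC was at 0.540 CPM or less, and the summed endothelial markers were at 0.750 to 1.18 CPM in GFP and 0.781 to 0.877 in ID3. Summed markers of fibroblasts and mesenchymal cells, a list that holds FN1, stood at 7114 to 7542 CPM in GFP and 15000 to 16942 CPM in ID3 libraries, with all 7 tested members raised and THY1 at 0. Summed astrocyte markers went from 102 to 109 CPM in GFP to 139 to 158 CPM in ID3 (2 of 2 tested members raised, AQP4 at 0), immune markers from 52.8 to 60.5 CPM to 61.6 to 70.9 CPM (2 of 2 raised), and neuronal markers from 12.9 to 17.2 CPM to 19.4 to 29.3 CPM (1 of 3 raised). The 1 tested oligodendrocyte marker of the list, CNP, and the 1 tested epithelial marker did not pass, but the myelin protein MBP, from the list of glial differentiation, fell from 4.39, 5.17 and 4.90 CPM to 0.607, 0.639 and 0.891 CPM (log2 fold change -2.75, edgeR adjusted p = 7.39e-07). The part of these markers in the results was not tested. CD68 made up most of the immune sum, at 49.5 to 55.7 CPM in GFP and 55.4 to 64.5 CPM in ID3, and FN1 most of the fibroblast sum. All libraries come from the single line U87MG, so the lists name genes and not cell types of a tissue. In bulk RNA of a culture, a change in the share of cells that express a gene and in RNA per cell cannot be told apart. One library outside the 6, ID2 library 3, stood apart from its group, and it enters the comparison of ID3 with GFP only through the shared spread.

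The ID3 mRNA itself, from chr1:23884417-23885992 on the minus strand of hg19 (GRCh37), was measured at 228, 218 and 217 CPM in the GFP libraries and at 308, 322 and 298 CPM in the ID3 libraries. Every ID3 library lay above every GFP library, by 1.40-fold on average. On the log2 scale this was a difference of 0.49 with a standard error of 0.07 (edgeR adjusted p = 9.93e-06). Here and below, an edgeR adjusted p is that of the quasi-likelihood F-test after Benjamini-Hochberg correction over all tested genes. For ID3 mRNA alone, a two-sided exact permutation test gave p = 0.10, the smallest that 3 libraries against 3 allow. ID3 counts were also high without ID3 virus, at 271 to 322 CPM in the ID2 libraries, which overlapped the ID3 libraries (log2 fold change 0.09, edgeR adjusted p = 0.427). They were 175 to 188 CPM in ID1 and 185 to 222 CPM in ID4 libraries. Whether the 3′ end of the viral transcript lies in the ID3 entry is not known, so these counts may not hold the introduced ID3.

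Of the other family members, ID2 was lowered and ID1 did not pass. ID1, from chr20:30193086-30194318, stood at 342, 338 and 354 CPM in GFP and 314, 339 and 322 CPM in ID3 libraries, and the groups overlapped (log2 fold change -0.09, edgeR adjusted p = 0.334). In the libraries given ID1 virus, ID1 mRNA was below GFP, at 246 to 250 CPM (log2 fold change -0.48, edgeR adjusted p = 6.07e-06). ID2, from chr2:8818975-8824591, was at 87.8, 85.6 and 83.9 CPM in GFP and 44.6, 48.6 and 45.2 CPM in ID3 libraries. It was lower in every ID3 library (log2 fold change -0.90, edgeR adjusted p = 7.29e-10), as it was in the ID1, ID2 and ID4 libraries at 31.5 to 47.3 CPM. Its gene overlaps the antisense gene ID2-AS1 over 3020 bases, and reads of these 2 cannot be told apart where strand was not used in counting. ID4, on chromosome 6, was below the limit of testing, with 1, 2 and 0 counts in the GFP libraries and 3, 5 and 10 in the ID3 libraries, higher in each (ratio 5.41, exact 95% interval 1.58 to 28.7, counting error only). It was at 212 to 236 CPM in the libraries given ID4 virus.

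**Figure D1:**
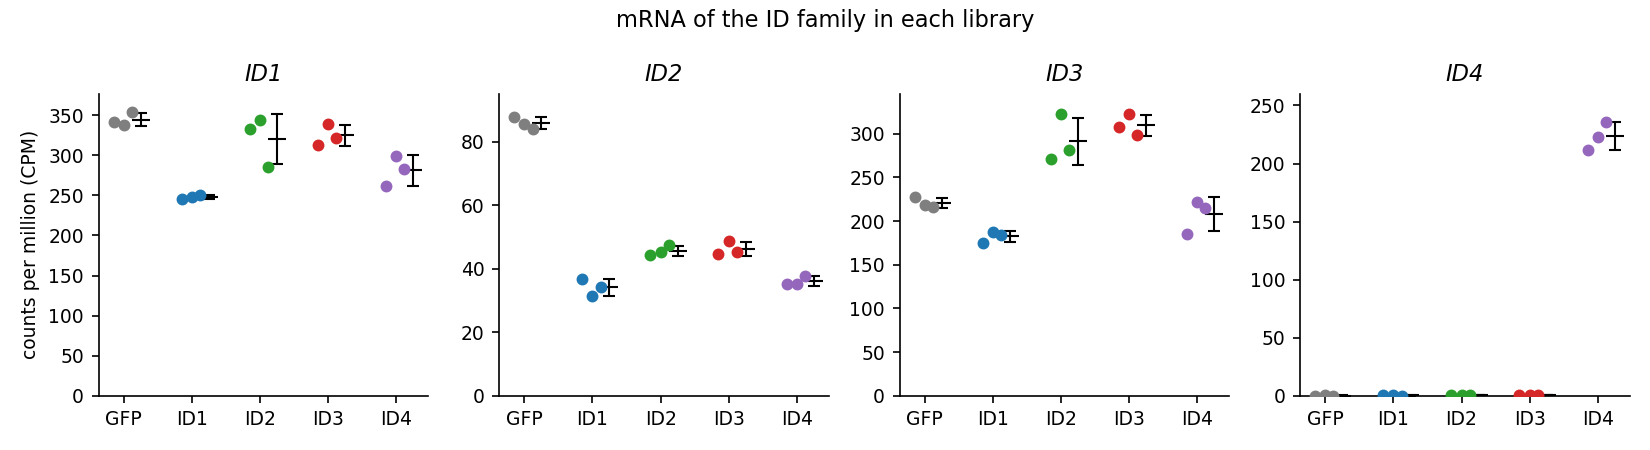
CPM of ID1, ID2, ID3 and ID4 (vertical axes, each starting at 0) in the 3 libraries of each group (points), with mean and SD. ID3 mRNA was 298 to 322 CPM in the ID3 libraries and 217 to 228 CPM in GFP, ID2 mRNA was lower in all 4 ID groups than in GFP, and ID4 mRNA was above 1 CPM only in the ID4 group.

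Between ID3 and GFP libraries, 3683 of 12755 tested genes (28.9%) passed the adjusted threshold of 0.05. Of these, 1943 were raised (15.2%) and 1740 were lowered (13.6%) with ID3. Most changes were small, since 1271 raised and 1425 lowered genes differed by less than 1.5-fold. Larger differences were mostly increases. Of 373 genes (2.92%) that differed by over 2-fold, 283 were raised (2.22%) and 90 lowered (0.706%), and 58 were raised and 16 lowered by over 4-fold. The median log2 fold change of all tested genes was -0.003. In 5267 genes (41.3%), the 3 ID3 libraries did not overlap the 3 GFP libraries.

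**Figure D2:**
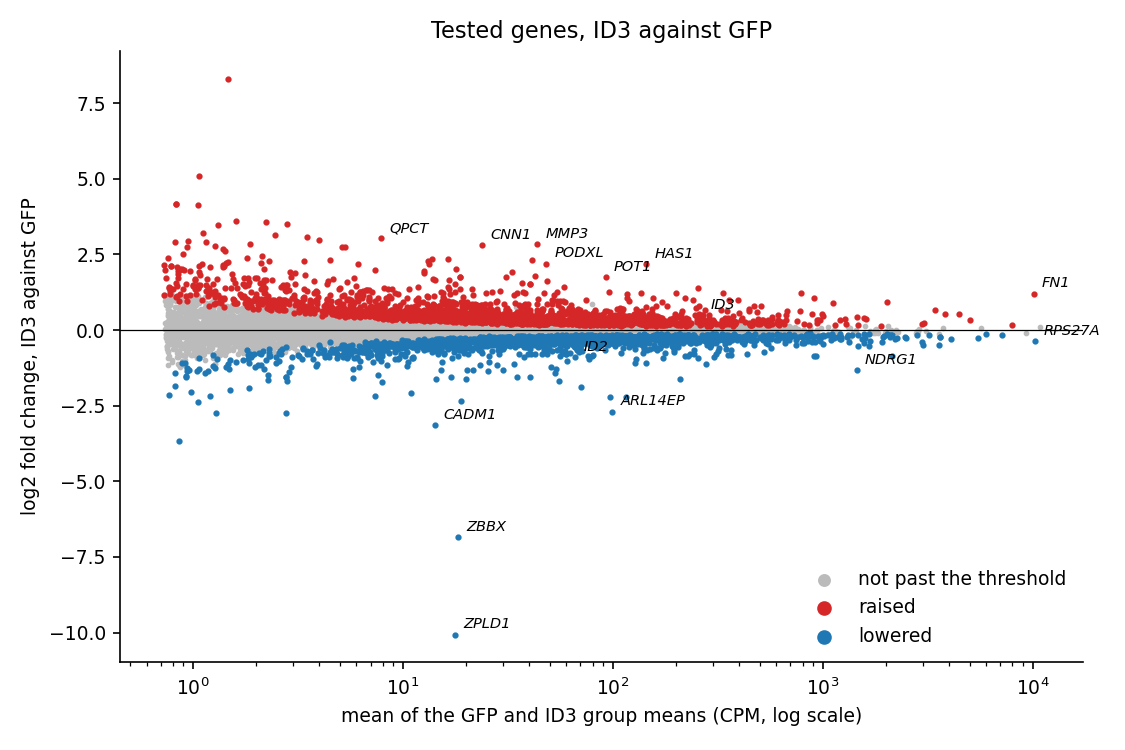
Each tested gene by its mean level in the 2 groups (CPM, log axis) and its log2 fold change between ID3 and GFP (vertical axis), coloured by whether it passed the adjusted threshold. ZPLD1, ZBBX, CADM1 and ARL14EP lie lowest among the labelled genes and QPCT, MMP3 and CNN1 highest; 283 genes were raised and 90 lowered by over 2-fold.

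The most strongly lowered genes are given for those with a mean of 10 CPM or more in GFP. ZPLD1, a zona pellucida domain membrane protein, was at 37.6, 36.7 and 31.4 CPM in GFP and at 1 count in all 3 ID3 libraries together, against 1351 in GFP (ratio 1499 with an exact 95% interval of 269 to 59255, counting error only). ZBBX, a zinc finger B-box protein, was at 40.6, 34.7 and 33.8 CPM in GFP and 0.0675, 0.355 and 0.520 in ID3. Both genes were nearly silent in every ID3 library. The adhesion molecule CADM1 was at 25.2, 25.5 and 25.6 CPM in GFP and 2.36, 3.41 and 2.82 in ID3 (log2 fold change -3.15, standard error 0.15, edgeR adjusted p = 5.87e-13). ARL14EP, an effector of the small GTPase ARL14, was at 181, 175 and 158 CPM in GFP and 28.4, 25.6 and 25.1 in ID3, 6.49-fold lower (edgeR adjusted p = 1.03e-16). CAMK2N1, an inhibitor of CaM kinase II, was at 178, 192 and 199 CPM and 39.8, 34.2 and 48.2 CPM (log2 fold change -2.22). The groups did not overlap in any of these genes. MTPAP, the mitochondrial poly(A) polymerase, fell by 3.68-fold, the transcription factor TFAP2C by 4.26-fold and SECTM1, a secreted and transmembrane protein, by 4.53-fold. The other virus groups were as low in ARL14EP and ZPLD1, since ARL14EP was at 24.1 to 26.3 CPM in ID1, 24.1 to 24.9 in ID2 and 22.2 to 25.5 in ID4 libraries, and ZPLD1 was at 0.228 CPM or less in each. In these groups ZBBX was at 0.369 CPM or less, MTPAP at 25.2 to 33.2 CPM and SECTM1 at 1.11 to 2.56 CPM. CADM1 was lower than in ID3 in ID2 (1.54 to 1.99 CPM) and ID4 (1.14 to 1.62 CPM), and higher in ID1 (3.94 to 5.26 CPM). CAMK2N1 was lower than in ID3 in ID2 (21.7 to 28.5 CPM), and higher in ID1 and ID4. TFAP2C was at 4.95 to 8.58 CPM in these groups and 3.17 to 4.69 CPM in ID3. The 4 comparisons with GFP share the same 3 GFP libraries.

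Among the largest increases were genes of the pericellular matrix and of contractile cells. QPCT, which forms pyroglutamate at the N-terminus of peptides, was at 1.53, 1.92 and 1.69 CPM in GFP and 14.8, 13.6 and 13.6 CPM in ID3 libraries. Its log2 fold change was 3.03 (standard error 0.16, edgeR adjusted p = 4.40e-12), the largest among raised genes with a mean of 10 CPM or more in the higher group. MMP3, the stromelysin that degrades matrix proteins, was at 11, 11 and 9.63 CPM in GFP and 82.3, 75.5 and 71.1 in ID3, and no libraries overlapped (log2 fold change 2.85, edgeR adjusted p = 1.11e-14). The smooth muscle calponin CNN1 was at 7.88, 5.66 and 3.97 CPM in GFP and 41.2, 43.3 and 41.1 in ID3, 7.04-fold higher. The hyaluronan synthase HAS1 was at 51.9, 49.7 and 56.1 CPM and 234, 247 and 227 CPM, 4.49-fold higher (edgeR adjusted p = 1.18e-16). All ID3 libraries were again above all GFP libraries. The sialomucin PODXL was 4.59-fold higher, the Golgi-associated kinase FAM198B 4.99-fold and the matricellular protein WISP2 4.81-fold. In these last 3 genes the ID2 libraries were higher still, with PODXL at 136 to 168 CPM against 71.6 to 85.7 CPM in ID3. The same held for CNN1, at 62.1 to 68.4 CPM in ID2, and HAS1, at 274 to 293 CPM in ID2. CNN1 was also higher in ID1 libraries, at 51.4 to 63.4 CPM, and was at 41.9 to 43.3 CPM in ID4. MMP3 was lowest among the virus groups in ID4, at 17.8 to 18.9 CPM.

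In absolute terms, the largest gain was in fibronectin, FN1, which was at 6110.2, 6310.4 and 5874 CPM in GFP and 14365, 14925 and 12921 CPM in ID3. Its log2 fold change was 1.21 (standard error 0.06, edgeR adjusted p = 3.34e-12). The ferritin heavy chain FTH1, beta-2 microglobulin B2M, the matrix protein TGFBI and the secreted protein CCDC80 followed, with log2 fold changes of 0.53, 0.67, 0.54 and 0.93. The largest losses in CPM were in the ribosomal protein RPS27A, at 11196, 11936 and 11735 CPM in GFP and 8206, 9659 and 9008 CPM in ID3, and in NDRG1, a hypoxia- and stress-responsive gene, at 2000.4, 2065 and 2143 CPM and 787, 837 and 853 CPM. The groups were separate in both genes, although RPS27A was 1.30-fold lower and NDRG1 2.51-fold. The tubulin TUBB6, the secreted glycoprotein STC2 and the ribosomal protein RPL27A had log2 fold changes of -0.49, -0.84 and -0.28.

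Increases were not spread evenly over the chromosomes. On chromosome 15, 197 of 415 tested genes (47.5%) were raised and 10 lowered, with a median log2 fold change of 0.32. On chromosome 12, 193 of 663 (29.1%) were raised, with a median of 0.14, and medians of 0.16 to 0.32 in the 20 Mb windows up to 80 Mb gave way to -0.06 to 0.00 beyond. ID1, ID2 and ID4 libraries had medians against GFP of 0.34, 0.25 and 0.38 on chromosome 15, and ID3 differed from them there by medians of -0.02, 0.05 and -0.05. Outside chromosomes 12 and 15, 1553 genes were raised (13.3%) and 1685 lowered (14.4%). Decreases were uneven too. On chromosome 8, 94 of 438 tested genes (21.5%) were lowered and 46 raised, with a median of -0.05. On chromosome 10, 108 of 498 (21.7%) were lowered and 54 raised, with a median of -0.09. Copy number was not measured, and its part in these values was not tested. Genes on chromosomes 12 and 15 are marked as such below. Those on chromosomes 8 (NDRG1 and MMP16 among them) and 10 (MTPAP, COL13A1 and CDK1 among them) are not marked.

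Gene lists were compared by their counts and medians, set against the 15.2% raised and 13.6% lowered among all tested genes. Over 35 pathway lists, 464 distinct member genes passed the threshold, 232 in each direction.

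**Figure D3:**
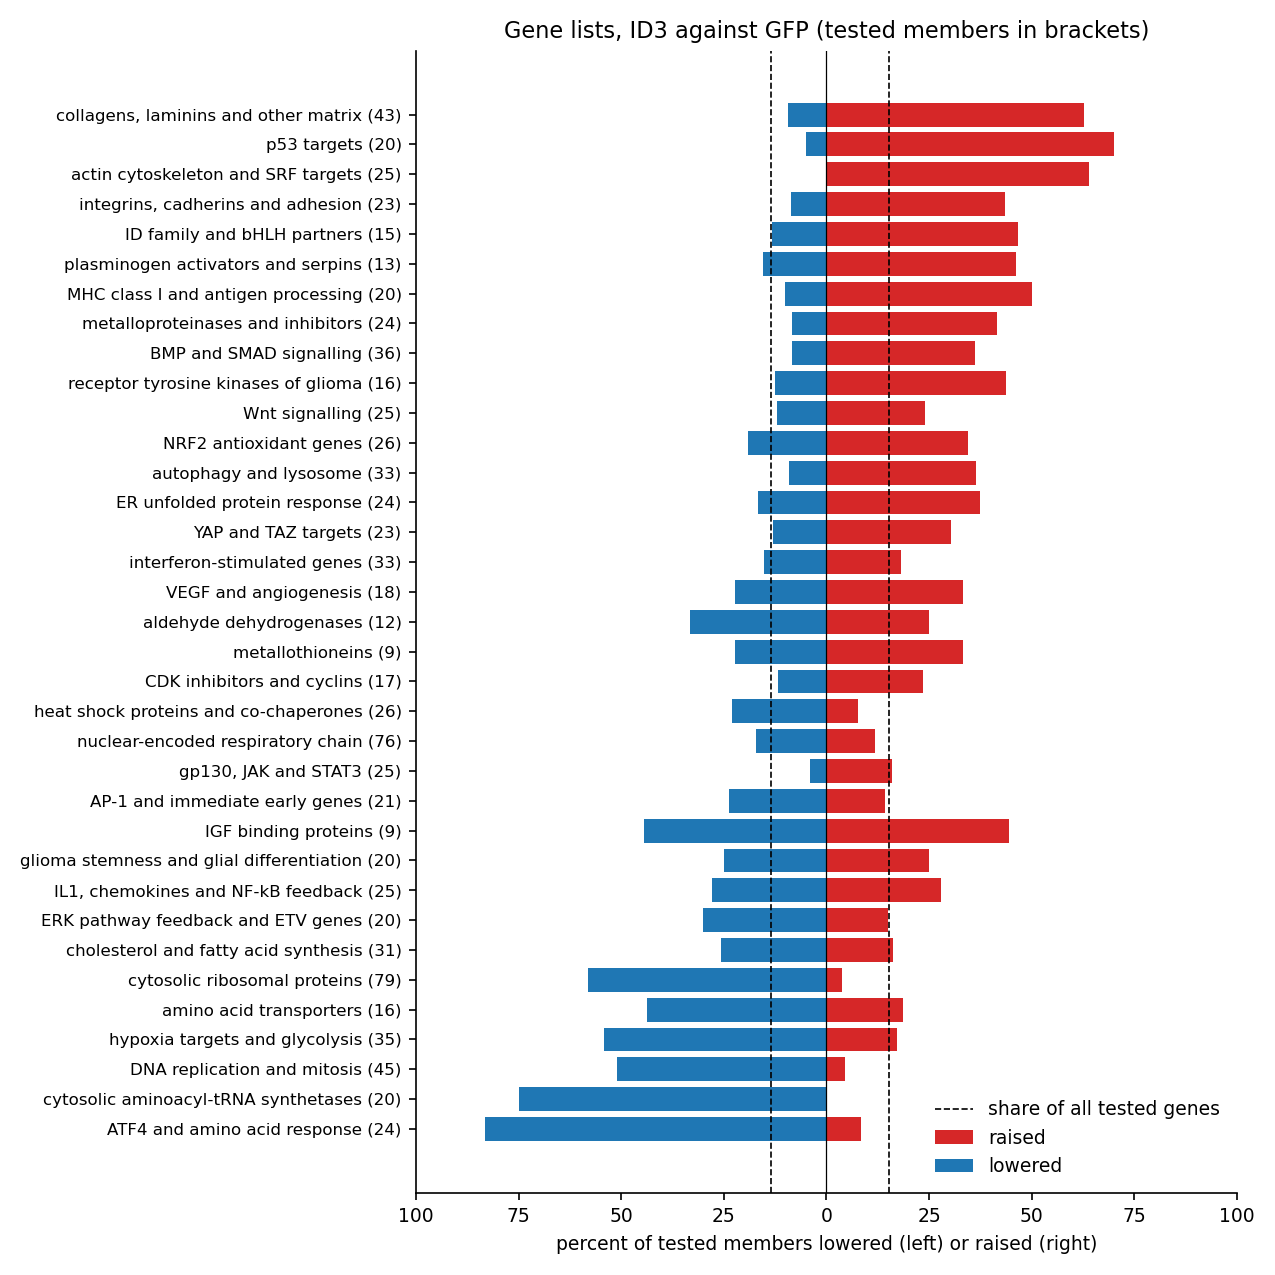
Percent of the tested members of each of 35 gene lists that were lowered (blue, left) or raised (red, right) in ID3 against GFP libraries. Dashed lines mark the shares among all tested genes (13.6% and 15.2%); genes of the ATF4 and amino acid response and the aminoacyl-tRNA synthetases lie far to the left, matrix, p53 and actin genes far to the right.

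The list with the largest share of lowered genes was the amino acid response. The transcription factor ATF4 is made when amino acids run short or the endoplasmic reticulum is stressed, and it drives genes of amino acid synthesis, uptake and tRNA charging. Of 24 tested genes of this response, 20 were lowered and 2 raised, with a median log2 fold change of -0.73. Asparagine synthetase, ASNS, was at 150.5, 161 and 167 CPM in GFP and 33.5, 34.4 and 35.4 CPM in ID3 libraries. Every ID3 library was far below every GFP library (log2 fold change -2.21, standard error 0.06, edgeR adjusted p = 1.73e-16). PSAT1, an enzyme of serine synthesis, was at 89.6, 84.8 and 78.4 CPM and 27.9, 27.2 and 24.4 CPM (log2 fold change -1.67, edgeR adjusted p = 8.30e-13). ATF4 mRNA was at 288, 320.4 and 311 CPM and 168, 174 and 191 CPM, again without overlap (log2 fold change -0.79, edgeR adjusted p = 2.87e-10). STC2 was at 2609, 2843 and 2742 CPM in GFP and 1469, 1598 and 1504 CPM in ID3. Medians of the list against GFP were -0.75 in ID1, -0.72 in ID2 and -0.73 in ID4 libraries, and ASNS was at 39.2 to 42.1, 32 to 35.7 and 38 to 41.2 CPM there.

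The promoter of ASNS is shown because it is the most strongly lowered gene of this list and carries the letters TGATGNAA, the form of the C/EBP-ATF composite element, read on both strands. These letters occurred in the 250 bases before the start of 139 of 9962 tested genes with a RefSeq promoter (1.40%) and of 4 of 18 genes of the list (22.2%). They also occurred in 27 of 1539 raised (1.75%) and 26 of 1361 lowered genes (1.91%). The sequence is from RefSeq, GRCh38.p14, chr7:97872409-97872658, minus strand, with the match in capitals. Its first base lies 68 bases before the start. A match describes the letters and does not show binding.

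ASNS: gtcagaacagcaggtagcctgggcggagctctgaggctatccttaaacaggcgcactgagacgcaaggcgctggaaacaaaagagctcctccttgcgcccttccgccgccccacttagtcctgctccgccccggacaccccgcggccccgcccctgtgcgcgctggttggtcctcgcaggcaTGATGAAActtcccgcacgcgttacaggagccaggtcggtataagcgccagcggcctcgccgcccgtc

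Genes of amino acid uptake and tRNA charging were more often lowered than raised. Of 16 tested amino acid transporters, 7 were lowered, 3 were raised and 6 did not pass. SLC7A5, the large neutral amino acid transporter, was at 30.3, 32.7 and 32.1 CPM in GFP and 6.68, 5.47 and 6.54 CPM in ID3, and SLC7A11, the cystine-glutamate exchanger, at 51.6, 54.6 and 50.1 CPM and 19.1, 16.1 and 18.1 CPM. Neither overlapped (log2 fold changes -2.34 and -1.55, edgeR adjusted p = 4.40e-12 and 4.24e-11). The glutamine transporter SLC38A1, on chromosome 12, was lowered by a smaller margin (-0.72), whereas SLC43A2, which carries neutral amino acids, rose from 11.1, 6.16 and 10.1 CPM to 27.9, 24.6 and 26.4 CPM (log2 fold change 1.51). Of 20 cytosolic aminoacyl-tRNA synthetases, 15 were lowered, with a median of -0.40. None was raised by edgeR's test, by DESeq2 or by limma, and 0 were higher at an unadjusted p under 0.05. The threonine enzyme TARS was at 694, 661 and 682 CPM and 444, 434 and 463 CPM (log2 fold change -0.60, edgeR adjusted p = 1.26e-08), and the glycine, alanine and tryptophan enzymes GARS, AARS and WARS had log2 fold changes of -0.75, -0.80 and -0.69. The list's medians against GFP were -0.23, -0.37 and -0.30 in ID1, ID2 and ID4 libraries.

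**Figure D4:**
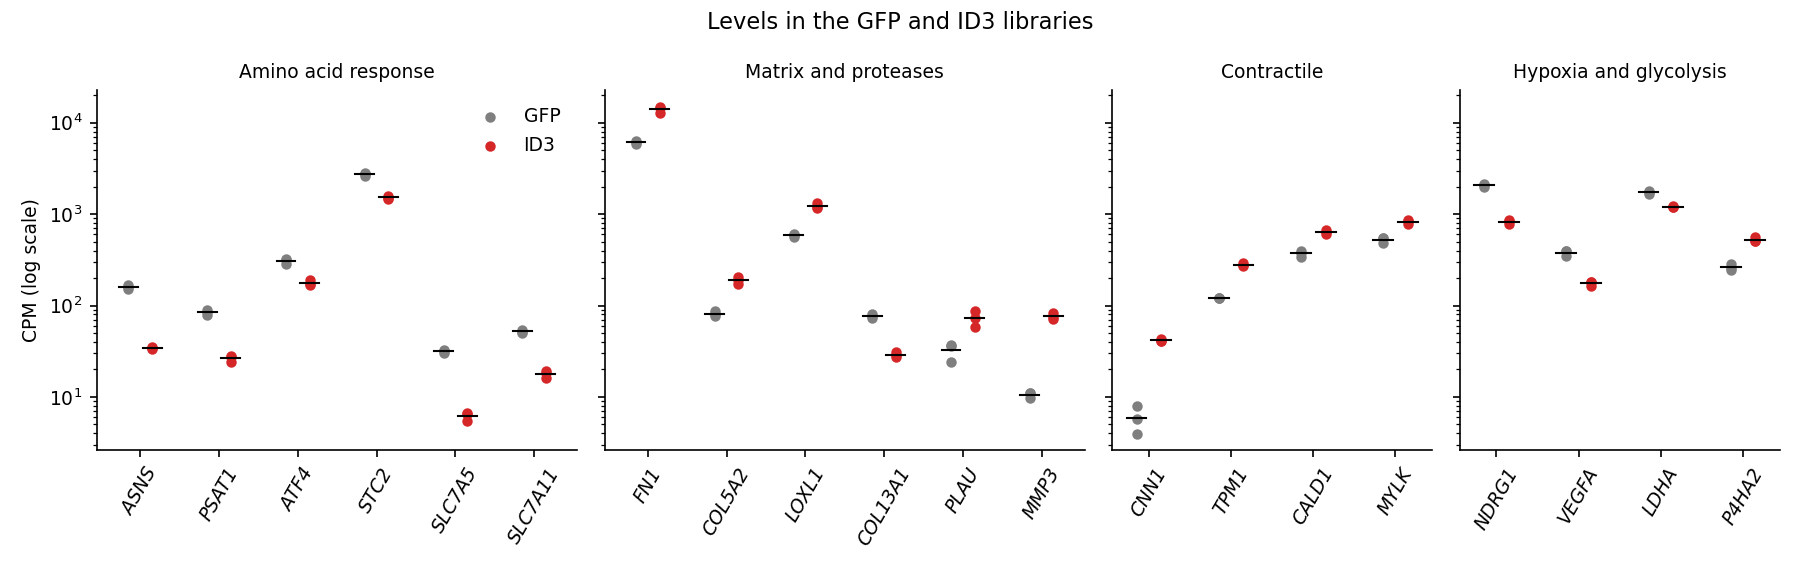
CPM (log axis) of named genes in the 3 GFP (grey) and 3 ID3 (red) libraries, with group means as bars. The 6 amino acid response genes lie lower in ID3, such as ASNS at 33.5 to 35.4 CPM against 150.5 to 167 CPM, while the matrix and contractile genes lie higher except COL13A1, and P4HA2 rose among the hypoxia genes.

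Genes of ribosomes and of cell division were lowered by small steps. Of 79 cytosolic ribosomal protein genes, 46 were lowered and 3 raised, with a median of -0.16. Against GFP, their medians were -0.12, -0.13 and -0.08 in ID1, ID2 and ID4 libraries. RPL13, RPL26 and RPS24 had log2 fold changes of -0.42, -0.40 and -0.29 (edgeR adjusted p = 1.67e-07, 8.16e-07 and 9.96e-06). Of those raised, RPLP1 lies on chromosome 15 and RPL41 on chromosome 12. Of 45 genes of DNA replication and mitosis, 23 were lowered and 2 raised, with a median of -0.23. For these genes, medians against GFP were -0.12, -0.24 and -0.12 in ID1, ID2 and ID4 libraries. The mitotic kinase CDK1 was at 175, 168 and 169.9 CPM in GFP and 125, 134 and 123 CPM in ID3 (log2 fold change -0.43, edgeR adjusted p = 4.04e-06). Topoisomerase TOP2A was at 2037, 2294 and 2229 CPM and 1579.9, 1787 and 1573 CPM (log2 fold change -0.41). RFC4, a subunit of the clamp loader of replication, was at 87.9, 104 and 110.5 CPM and 65.3, 64.5 and 70.3 CPM (log2 fold change -0.59). All 3 were lower in every ID3 library. The 2 raised genes, the checkpoint kinase BUB1B (0.76) and PRC1, both lie on chromosome 15.

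Of 20 p53 targets, 14 were raised and 1 lowered, with a median of 0.36. Medians against GFP were 0.26, 0.24 and 0.15 in ID1, ID2 and ID4 libraries. The CDK inhibitor CDKN1A was at 120.1, 123 and 112 CPM in GFP and 151, 158 and 153 CPM in ID3 (log2 fold change 0.38, edgeR adjusted p = 1.30e-05). The ubiquitin ligase of p53, MDM2 on chromosome 12, and the RNA-binding protein ZMAT3 had log2 fold changes of 0.47 and 0.38. The one lowered member was SESN2, a leucine sensor upstream of mTORC1 that ATF4 also drives, at -0.87. Of 17 CDK inhibitors and cyclins, 4 were raised and 2 lowered; they included CDKN1B on chromosome 12 (0.38), CCND3 (0.33) and the pocket protein RBL1 (-0.53).

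Hypoxia targets and glycolytic enzymes were more often lowered than raised. Of 35 tested, 19 were lowered and 6 raised, and 4 of those 6 lie on chromosomes 12 and 15. The list's median was -0.23, and the ID1, ID2 and ID4 libraries had medians against GFP of -0.34, -0.15 and -0.27. VEGFA, the endothelial growth factor, was at 393, 393 and 352 CPM in GFP and 182, 164 and 180.2 CPM in ID3 libraries (log2 fold change -1.11, edgeR adjusted p = 4.23e-11). Lactate dehydrogenase LDHA was at 1774, 1757 and 1649 CPM and 1201, 1193 and 1240.1 CPM (log2 fold change -0.51). Both were lower in every ID3 library, as was NDRG1 (edgeR adjusted p = 2.19e-15). P4HA2, a collagen prolyl hydroxylase induced by hypoxia, went the other way, from 284, 257 and 243 CPM to 509, 559.7 and 505 CPM (log2 fold change 1.0, edgeR adjusted p = 1.03e-10), and it was higher in ID3 than in ID1 (0.58) and ID4 libraries (0.63). The nuclear-encoded respiratory chain was near the background, with 9 raised and 13 lowered of 76 and a median of -0.02, and with 10 raised and 8 lowered when library totals replaced TMM scaling. Of 31 cholesterol and fatty acid synthesis genes, 8 were lowered and 5 raised, or 8 and 8 with library totals, and the desaturase SCD was at a log2 fold change of -0.37 (edgeR adjusted p = 3.70e-05).

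Matrix and adhesion genes were mostly raised among those that passed. Of 43 tested collagens, laminins and other matrix genes, 27 were raised and 4 lowered, with a median log2 fold change of 0.48, and 0.45 for those outside chromosomes 12 and 15. Over the whole list, medians against GFP were 0.35, 0.47 and 0.29 in ID1, ID2 and ID4 libraries. The collagen COL5A2 was at 86.2, 80.6 and 76.5 CPM in GFP and 192, 207 and 171 CPM in ID3 (log2 fold change 1.23, edgeR adjusted p = 1.08e-10). LOXL1, an enzyme that crosslinks elastin and lies on chromosome 15, was at 606, 565 and 593 CPM and 1208, 1330.3 and 1159 CPM (log2 fold change 1.07). The transmembrane collagen COL13A1 was among those lowered, from 73.8, 80.4 and 77.7 CPM to 30.9, 27.3 and 28.7 CPM (log2 fold change -1.42, edgeR adjusted p = 7.25e-13). None of these groups overlapped. Of 23 integrins, cadherins and other adhesion genes, 10 were raised and 2 lowered, one of the latter CADM1. The integrins ITGB5 and ITGB2 and the adhesion molecule ALCAM had log2 fold changes of 0.54, 2.23 and 0.50. ITGB2 levels were low, at 0.628 to 0.833 CPM in GFP and 2.56 to 3.94 CPM in ID3. It was at 4.53 to 4.71, 11.6 to 13.8 and 4.77 to 6.38 CPM in ID1, ID2 and ID4 libraries. ITGB5 was at 160 to 170, 169 to 177 and 126 to 137 CPM in these groups, against 121 to 130 CPM in ID3.

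Contractile genes were raised as well. Of 25 actin cytoskeleton and SRF target genes, 16 were raised, with a median of 0.32, and 1 of the 16 lies on chromosomes 12 and 15. None was lowered by edgeR, DESeq2 or limma, and 1 was lower at an unadjusted p under 0.05. The list was shifted as far in the other virus groups, with medians against GFP of 0.40, 0.46 and 0.32 in ID1, ID2 and ID4. Tropomyosin TPM1, the one on chromosome 15, was at 119.7, 122 and 121 CPM in GFP and 278, 291 and 270.1 CPM in ID3 (log2 fold change 1.21, edgeR adjusted p = 2.13e-13). Caldesmon CALD1 was at 341, 394 and 379 CPM and 611, 634 and 672 CPM, and the myosin light chain kinase MYLK at 484, 549 and 545 CPM and 773, 835 and 857 CPM. The log2 fold changes of the latter 2 were 0.78 and 0.64, with every ID3 library above every GFP library. Of 23 YAP and TAZ targets, 7 were raised and 3 lowered, with a median of 0.08.

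Genes of pericellular proteolysis were more often raised than lowered. Of 24 metalloproteinases and inhibitors, 10 were raised and 2 lowered, and of 13 plasminogen activators and serpins, 6 were raised and 2 lowered. Urokinase, PLAU, was at 35.7, 24.2 and 37.4 CPM in GFP and 73.2, 57.6 and 87.3 CPM in ID3 (log2 fold change 1.16, edgeR adjusted p = 4.93e-04). It was higher in every ID3 library than in any GFP library. The aggrecanase ADAMTS5 and the disintegrin ADAM12 were raised by 0.58 and 0.45 on the log2 scale, and MMP16, a membrane-type metalloproteinase, fell (-0.87).

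Ligands and receptors of several pathways changed as single genes. TGFB2, a TGF-beta ligand, was at 34.9, 35.3 and 33.3 CPM in GFP and 66.1, 69.8 and 68.2 CPM in ID3 (log2 fold change 0.98, edgeR adjusted p = 4.23e-11). The inhibitory SMAD6, on chromosome 15, was at 12.5, 12.4 and 11.8 CPM and 25.2, 25.9 and 27.6 CPM (log2 fold change 1.10), and the BMP ligand GDF5 at 128, 137 and 148 CPM and 76.1, 82.2 and 86.4 CPM (log2 fold change -0.75). TGFB2 and SMAD6 were higher and GDF5 lower in every ID3 library, and over the 36 BMP and SMAD genes 13 were raised and 3 lowered. The BMP antagonist GREM1, on chromosome 15, had a log2 fold change of 0.64. Of 15 tested genes of the ID family and its bHLH partners, 7 were raised and 2 lowered, while 12 were below the limit of testing. The E protein TCF12, on chromosome 15, was at 16.9, 16 and 18 CPM and 28.5, 25.5 and 27.4 CPM (log2 fold change 0.68, edgeR adjusted p = 6.79e-06), and the repressor BHLHE41, on chromosome 12, had 0.55.

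The Wnt ligand WNT5B, on chromosome 12, was at 14.3, 13.3 and 13.7 CPM in GFP and 55, 49.4 and 53.2 CPM in ID3, and the R-spondin receptor LGR4 had a log2 fold change of 1.24. Over the 25 Wnt genes, 6 were raised and 3 lowered, with a median of 0.17 that was 0.04 outside chromosomes 12 and 15. ANGPT1, the ligand of the TIE2 receptor, was at 7.67, 7.66 and 5.92 CPM and 28.9, 29.8 and 26.8 CPM (log2 fold change 2.0, edgeR adjusted p = 3.06e-11). The VEGF and semaphorin receptor NRP2 was at 52, 57.3 and 60.5 CPM and 129, 146 and 127 CPM (log2 fold change 1.25). These increases stood beside the fall in VEGFA, and 6 of 18 angiogenesis genes were raised and 4 lowered. The receptor PDGFRB was at 16.2, 14 and 13.9 CPM and 36, 33 and 35.6 CPM (log2 fold change 1.24, edgeR adjusted p = 1.24e-09), and 7 of 16 receptor tyrosine kinases were raised and 2 lowered. Of the 9 tested genes of the IGF binding protein list, which also holds the receptor IGF1R, 4 were raised and 4 lowered. The raised IGF1R and IGFBP6 lie on chromosomes 15 and 12. Outside these 2 chromosomes, 2 were raised and 4 lowered, with a median of -0.38. IGFBP4 was at 200.2, 189.9 and 199.9 CPM in GFP and 92.5, 91 and 91.9 CPM in ID3, with a log2 fold change of -1.10, yet ID3 was above ID1, ID2 and ID4 libraries by 0.86, 0.58 and 0.73.

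In the gp130, JAK and STAT3 list, 4 of 25 genes were raised and 1 lowered, near or below the shares of all tested genes. STAT3 itself was the lowered one, at 159.6, 175 and 158 CPM in GFP and 123, 132 and 134 CPM in ID3 (log2 fold change -0.34, edgeR adjusted p = 6.16e-04). The gp130 ligand IL11 was at 14.4, 14 and 18.9 CPM and 26.8, 28.3 and 30.4 CPM (log2 fold change 0.86), the kinase JAK1 had 0.52 and the receptor IL11RA 0.21 (edgeR adjusted p = 0.0254). The remaining raised gene was SOCS2 (0.67), an inhibitor of cytokine signalling on chromosome 12, named after its values were seen. The IL11RA libraries overlapped, at 81.2 to 91.4 CPM in GFP and 88.2 to 112 CPM in ID3, and its call was lost without ID3 library 3 (log2 fold change 0.12) or GFP library 1 or 2 (0.18 and 0.20). The cytokine IL1B was at 28, 23.1 and 24.7 CPM and 10.3, 8.38 and 7.13 CPM (log2 fold change -1.55, edgeR adjusted p = 4.98e-08), and 7 of 25 IL1, chemokine and NF-kB genes were raised and 7 lowered. Interferon-stimulated genes had 6 of 33 raised and 5 lowered, with a median of 0.04. ERK feedback genes had 6 of 20 lowered and 3 raised, among them the phosphatase DUSP6 (-0.78) and PHLDA1 (-0.85), both on chromosome 12, IER3 (-0.85) and the transcription factor ETV1 (-0.56). Of 21 AP-1 and immediate early genes, 5 were lowered and 3 raised.

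Of 20 genes of glioma stemness and glial differentiation, 5 were raised and 5 lowered. CHI3L1, a secreted glycoprotein of mesenchymal glioma, was at 22.7, 19.7 and 23.2 CPM in GFP and 50.7, 48.9 and 59.2 CPM in ID3 (log2 fold change 1.27, edgeR adjusted p = 1.18e-10). The stem and progenitor factor SOX9 was at 21.4, 20.6 and 23.2 CPM and 7.90, 5.97 and 7.35 CPM (log2 fold change -1.62, edgeR adjusted p = 3.05e-09). ALDH1A3, a retinaldehyde dehydrogenase used as a marker of mesenchymal glioma stem cells, lies on chromosome 15 and was at 322, 306 and 315 CPM and 103, 100.8 and 106 CPM (log2 fold change -1.61). CHI3L1 was thus higher, and SOX9 and ALDH1A3 lower, in every ID3 library. Of 12 tested aldehyde dehydrogenases, 4 were lowered and 3 raised. Besides ALDH1A3 they included ALDH4A1 (1.35) and, on chromosome 12, ALDH2 (1.82) and ALDH1L2 (-0.97).

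Antigen presentation and stress lists were mixed. Of 20 MHC class I and antigen processing genes, 10 were raised and 2 lowered. HLA-B was at 582, 605 and 579 CPM in GFP and 759, 748 and 737 CPM in ID3 (log2 fold change 0.35, edgeR adjusted p = 1.35e-05), and B2M, on chromosome 15, at 2589.8, 2475 and 2879 CPM and 4205, 3807 and 4615 CPM. The near-identical class I genes can share reads, so the split between HLA-B and HLA-C (0.29) is uncertain. Of 33 autophagy and lysosome genes, 12 were raised and 3 lowered, and the lysosomal protease CTSD was at 717, 715 and 742 CPM and 1016, 1128 and 991 CPM (log2 fold change 0.53). Of 26 NRF2 targets, 9 were raised and 5 lowered, with the aldo-keto reductases AKR1C1 and AKR1C2, which are near-identical too, at 0.44 and 0.42. The unfolded protein response had 9 of 24 raised and 4 lowered, heat shock proteins 2 of 26 raised and 6 lowered, and metallothioneins 3 of 9 raised and 2 lowered. The small heat shock protein CRYAB had a log2 fold change of 2.74 (edgeR adjusted p = 9.87e-10) and the mitochondrial chaperonin HSPD1 -0.32.

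Direct tests between the virus groups, in which the GFP values do not enter the difference, asked where ID3 stood apart. Some chromosome medians differed here as well. On chromosome 4, the median log2 difference of ID3 was -0.002 from ID1, 0.18 from ID2 and 0.14 from ID4. On chromosome 9 it was -0.02, 0.13 and -0.02. The part of these shifts in the counts below was not tested. ID3 differed from ID1 in 1196 genes (9.38%), from ID2 in 1958 (15.4%) and from ID4 in 1456 (11.4%) of those tested, by over 2-fold in 65 (0.510%), 153 (1.20%) and 106 (0.831%). Without ID2 library 3, the count against ID2 was 2388. ID3 was higher than ID1 in 616 genes (4.83%) and lower in 580 (4.55%), higher than ID2 in 961 (7.53%) and lower in 997 (7.82%), and higher than ID4 in 707 (5.54%) and lower in 749 (5.87%). The count filter used the ID3 and GFP libraries only. Genes high only in ID1, ID2 or ID4 libraries, such as the ID4 gene itself, were not tested, and the counts of lower genes leave them out. Matrix genes were higher in ID3 than in ID1 in 15 of 43 cases and lower in 2, and higher than in ID4 in 13 and lower in 4. Against ID2, 5 were higher and 8 lower. FN1 followed this order, with 7775 to 9029.9 CPM in ID1, 8818 to 9986 in ID4 and 13368 to 15356 in ID2 libraries (log2 difference of ID3 0.74, 0.58 and -0.01, edgeR adjusted p = 7.34e-08, 2.31e-06 and 0.921). Actin and SRF genes were lower in ID3 than in ID2 in 10 of 25 cases and higher in 1, as in CALD1 (-0.68). Cholesterol and fatty acid genes were lower than in ID2 in 13 of 31 and higher in 1, and lower than in ID1 in 7 and higher in none by edgeR, DESeq2 or limma (0 at an unadjusted p under 0.05). Ribosomal protein genes were lower than in ID4 in 16 of 79 cases and higher in none by these 3 tools, with 2 higher at an unadjusted p under 0.05 and 1 higher past the adjusted threshold with library totals in place of TMM scaling. Heat shock genes were lower than in ID1 in 8 of 26 cases and higher in none by these 3 tools, with 1 higher at an unadjusted p under 0.05. Autophagy and lysosome genes were higher than in ID4 in 11 of 33 cases and lower in 1. The ATF4 list differed little between ID3 and ID1, with 1 of 24 higher and 2 lower, but 7 were higher than in ID2 and 1 lower.

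Genes were called particular to ID3 when they passed the threshold in the same direction against GFP, ID1, ID2 and ID4. There were 132 (1.03%), 84 of them higher in ID3 (0.659%) and 48 lower (0.376%), and 7 lie on chromosomes 12 and 15. Chromosome 4 held 10 of them among its 458 tested genes. Most were modest, with a median of 0.31 for the smallest of the 4 absolute log2 fold changes, and 16 were over 2-fold in every comparison, 15 higher and 1 lower. The count was 260 without ID2 library 3 (128 higher, 132 lower), and 75 and 79 without ID3 library 1 and 2. With library totals in place of TMM scaling it was 135, of which 109 were higher and 26 lower.

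Of particular genes with a mean of 10 CPM or more in the highest group, 8 raised and 8 lowered ones are described, ranked by the smallest of their 4 differences. POT1, which binds single-stranded telomeric DNA as part of shelterin, lies at chr7:124462440-124570037 on the minus strand. It was at 39.5, 46.4 and 41.1 CPM in GFP, 36.9, 38.8 and 38.2 CPM in ID1, 44.7, 42.2 and 41.3 CPM in ID2 and 40.9, 37.5 and 34.3 CPM in ID4 libraries, against 136, 143 and 148 CPM in ID3. All other libraries lay within 34.3 to 46.4 CPM, and ID3 was 3.36-fold above GFP. The log2 differences of ID3 from GFP, ID1, ID2 and ID4 were 1.75, 1.90, 1.73 and 1.92 (edgeR adjusted p = 4.43e-14, 4.42e-14, 2.46e-13 and 9.42e-14). The tested genes next to it, WASL and NDUFA5 on one side and ZNF800 and GCC1 on the other, had log2 fold changes against GFP of 0.22, 0.08, -0.19 and -0.12, none past the threshold. The antisense gene POT1-AS1, which overlaps POT1 over 111 bases, had a log2 fold change of 0.24 (edgeR adjusted p = 0.528).

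NPRL2, a subunit of the GATOR1 complex that holds mTORC1 inactive when amino acids are scarce, showed the same pattern. It lies at chr3:50384761-50388257 and was at 22.5, 26.5 and 22.1 CPM in GFP and 71.9, 78.6 and 69.1 CPM in ID3, and at 20.8 to 23.8, 20.8 to 22.4 and 23.4 to 24.7 CPM in ID1, ID2 and ID4 libraries. No other library came near the ID3 libraries (log2 differences 1.63, 1.72, 1.75 and 1.61 from GFP, ID1, ID2 and ID4, edgeR adjusted p = 1.30e-12 against GFP). CYB561D2, which lies 19 bases away, had a log2 fold change of 0.25 (edgeR adjusted p = 0.0397), and ZMYND10 on the other side -0.07. LCMT1, the methyltransferase of the catalytic subunit of phosphatase PP2A, lies at chr16:25123052-25189552 and was at 20.3, 21.8 and 20.6 CPM in GFP and 59.4, 64.1 and 56.4 CPM in ID3. It was at 19.9 to 21.2, 19.4 to 21 and 16.6 to 18.3 CPM in ID1, ID2 and ID4 (log2 differences 1.52, 1.56, 1.57 and 1.79, edgeR adjusted p = 1.30e-12 against GFP). Its neighbours ARHGAP17 and ZKSCAN2 had log2 fold changes of -0.06 and -0.07. OMA1, a protease of the inner mitochondrial membrane that cuts OPA1, lies at chr1:58881056-59012474 and was at 3.83, 3.67 and 6.0 CPM in GFP and 21.9, 20.9 and 26.1 CPM in ID3, 5.13-fold higher (edgeR adjusted p = 2.41e-09). The 9 libraries of ID1, ID2 and ID4 held it at 4.25 to 6.75 CPM. OMA1 overlaps DAB1 on the same strand, a gene that was not tested.

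**Figure D5:**
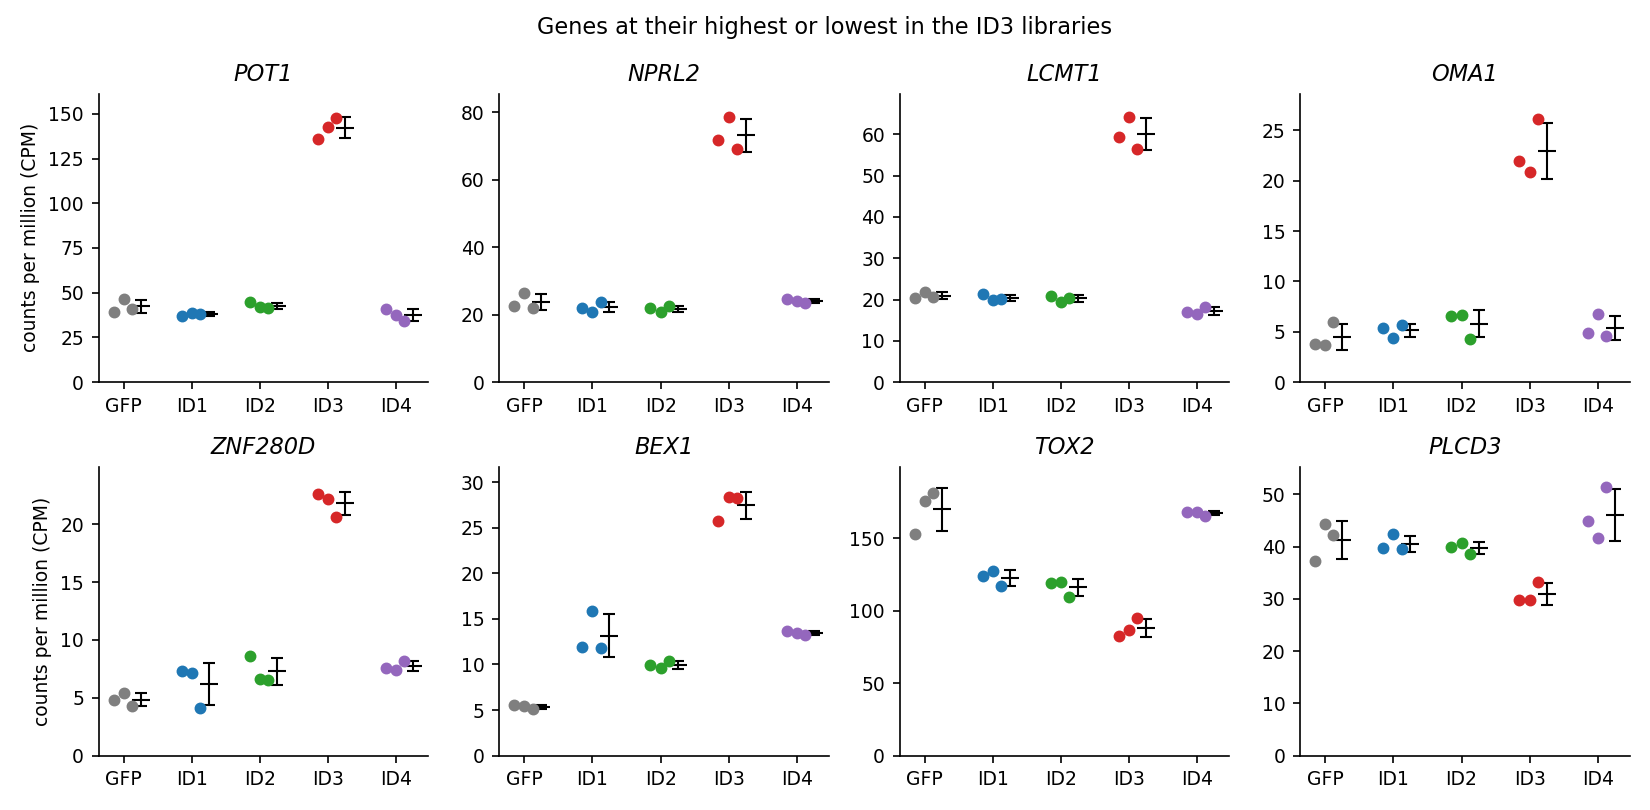
CPM of 8 genes (vertical axes, each starting at 0) in the 3 libraries of each of the 5 groups (points), with mean and SD. POT1, NPRL2, LCMT1, OMA1, ZNF280D and BEX1 were higher in all 3 ID3 libraries than in any other library, and TOX2 and PLCD3 lower.

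The zinc finger gene ZNF280D, on chromosome 15, was at 4.81, 5.42 and 4.31 CPM in GFP and 22.6, 22.2 and 20.6 CPM in ID3 (log2 fold change 2.17), and at 4.12 to 8.64 CPM in the other virus groups. BEX1, a brain-expressed gene of the X chromosome, was at 5.51, 5.50 and 5.07 CPM in GFP, 11.8 to 15.8 CPM in ID1, 9.58 to 10.4 in ID2, 13.3 to 13.7 in ID4 and 25.7, 28.4 and 28.2 CPM in ID3 libraries. It was thus raised in each virus group and highest in ID3 (log2 difference from ID1 1.06, from ID2 1.46 and from ID4 1.03). SS18L1, a subunit of neuronal BAF chromatin remodelling complexes, was at 11.6, 7.91 and 11.2 CPM in GFP and 21.9, 21.9 and 26.5 CPM in ID3 (log2 fold change 1.19, edgeR adjusted p = 1.44e-06), while its neighbours PSMA7 and MTG2, which lie 329 and 514 bases away, had -0.04 and 0.03. Complement factor I, CFI, on chromosome 4, was at 10.8, 12.3 and 11.5 CPM and 19.9, 23.4 and 22.9 CPM (log2 fold change 0.94, edgeR adjusted p = 1.32e-05). These 4 and the 4 genes before them passed all 4 tests with any 1 of the 15 libraries left out.

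The particular gene lowered by over 2-fold in every comparison was the ephrin receptor EPHA1, picked after its values were seen, which lay below 10 CPM, at 3.42, 2.83 and 3.8 CPM in GFP and 1.69, 0.852 and 1.04 CPM in ID3 (log2 fold change -1.47, edgeR adjusted p = 1.56e-04). TOX2, an HMG-box transcription factor, was at 153, 176 and 181 CPM in GFP, 117 to 128 CPM in ID1, 109 to 120.1 in ID2, 166 to 168 in ID4 and 82.8, 86.4 and 95.1 CPM in ID3. It was lowest in the ID3 libraries (log2 fold change -0.95 against GFP, edgeR adjusted p = 4.30e-10, and -0.48, -0.40 and -0.93 against ID1, ID2 and ID4). The phospholipase PLCD3 was at 37.2, 44.3 and 42.3 CPM in GFP and 29.7, 29.8 and 33.3 CPM in ID3 (log2 fold change -0.42, edgeR adjusted p = 7.39e-04). CIC, the capicua repressor of ETV genes, was at 44.3, 43.4 and 51.2 CPM and 29.5, 30.3 and 35.9 CPM (log2 fold change -0.54). C8orf48 had -0.58, SPATA2 -0.57, RMND1 -0.44, LINC01184 -0.43 and CCDC18 -0.36. TOX2, PLCD3 and C8orf48 passed all 4 tests with any 1 of the 15 libraries left out, whereas LINC01184 and CIC did so in 10 cases, CCDC18 in 7, and RMND1 and SPATA2 in 2. C8orf48 overlaps DLC1, PLCD3 overlaps NMT1 and ACBD4, LINC01184 overlaps CCDC192 and CCDC18 overlaps TMED5, so their counts could hold reads of both genes, as could those of ZNF280D and CFI, which overlap annotated genes without a symbol.

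Of the 132 genes, 26 were members of the pathway lists, 16 higher and 10 lower in ID3. The lists held 890 of the 12755 tested genes and were chosen with earlier results of these data known. The class I genes HLA-B and HLA-C and the NRF2 targets AKR1C1, AKR1C2 and FTH1 were each above all other groups, HLA-B by 0.40, 0.51 and 0.41 on the log2 scale against ID1, ID2 and ID4. So were the proteases ADAM12 and ADAMTS5, the collagens COL1A1 and COL5A1 (whereas the matrix protein POSTN was lower), the receptor PDGFRB (by 0.42, 0.50 and 0.37) and CTSD (by 0.24, 0.28 and 0.35). Below all other groups were RFC4 (-0.40, -0.31 and -0.43) and the centromere proteins CENPE and CENPF, the ribosomal proteins RPL14, RPL27A and RPS18, the sterol isomerase EBP, the glutamine transporter SLC1A5 and the chaperone HSP90AB1. Of these, COL1A1, COL5A1, POSTN, SLC1A5, HSP90AB1, CENPE, CENPF, RPL14 and RPS18 fell outside the naming rule, and their values had been seen when they were picked.

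Since ID proteins act on factors that bind E boxes, the promoters of the particular genes were read for the E-box letters CAGGTG and CAGCTG on both strands. CAGGTG occurred in the 250 bases before the start of 21 of 109 particular genes with a RefSeq promoter (19.3%) and of 1481 of all 9962 (14.9%), and CAGCTG in 15 (13.8%) and 1219 (12.2%). The promoters of POT1 and OMA1 are shown as the particular genes of the largest differences that held either motif, which is in capitals. That of POT1, chr7:124929826-124930075 on the minus strand of GRCh38.p14, held CAGCTG with its first base 108 bases before the start and CAGGTG, which reads CACCTG on this strand, 17 bases before it. That of OMA1, chr1:58546727-58546976 on the minus strand, held CAGCTG 125 bases before the start. NPRL2 and LCMT1 held neither in this window. These are descriptions of the letters and show no binding.

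POT1: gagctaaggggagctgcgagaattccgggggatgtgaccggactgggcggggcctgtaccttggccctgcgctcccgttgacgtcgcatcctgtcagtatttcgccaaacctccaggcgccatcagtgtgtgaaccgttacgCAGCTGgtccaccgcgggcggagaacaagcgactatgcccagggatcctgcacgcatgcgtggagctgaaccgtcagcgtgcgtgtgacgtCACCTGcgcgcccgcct

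OMA1: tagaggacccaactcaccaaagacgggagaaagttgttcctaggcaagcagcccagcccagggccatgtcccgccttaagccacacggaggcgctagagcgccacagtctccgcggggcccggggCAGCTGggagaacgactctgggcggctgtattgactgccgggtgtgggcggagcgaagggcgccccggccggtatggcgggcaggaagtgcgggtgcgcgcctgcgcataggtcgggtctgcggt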

How the data were processed

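QuantSeq 3′ libraries of U87MG cells were sequenced and processed by the company eBiogen on hg19. Per the labels, Bowtie2 and BWA were used. The counting tool, annotation and strand setting are not given in the sources used here. The authors deposited raw counts per gene symbol, and log2 normalized counts as a second set of 15 columns; the latter equalled the log2 of the count shifted by a near-constant per library (-0.187 to 0.267), and served only as an alternative. The table listed 25737 entries, with 286 symbols occurring more than once and 5484 at 0 in every library; positions came from GENCODE lifted to GRCh37 (22331 matched by symbol, 1413 by an older symbol, 1993 unmatched).

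Counts were fitted with edgeR 4.0.16 in R 4.3.3 (quasi-likelihood, TMM factors 0.977 to 1.03, all 15 libraries with a mean for each group, common dispersion 0.00462). Entries with a mean of 10 or more counts over the ID3 and GFP libraries were tested, and p-values adjusted by Benjamini-Hochberg at 0.05. Standard errors are the absolute log2 fold change divided by the square root of F. The fit was tested on simulated data. Alternatives were DESeq2 1.42.0, its size factors, limma 3.58.1 on the deposited log2 values, other count filters, library totals, a fold threshold, the methods' rule for the ID1 signature, leaving out chromosomes 6, 8, 10, 12 and 15, a replicate block and leaving out each library; for particular genes, library totals and leaving out libraries of the other groups were added after the data were seen. No libraries were duplicates. The labels do not say what equal replicate numbers mean, and not every pair correlated above 0.1, so samples were not treated as paired.

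Genes were named by rule: ID1 to ID4; by largest fold change, 10 raised and 10 lowered genes with no overlap and a mean of 10 CPM in the higher group; 8 raised and 8 lowered particular genes by the smallest of their 4 differences, with a mean of 10 CPM or more in the highest group; 5 raised and 5 lowered by CPM difference; and up to 4 genes per list by adjusted p. Neighbouring genes were taken by position, and any other gene was chosen after its values were seen. The groups and lists were chosen with earlier results of these data known. Promoters were RefSeq, GRCh38.p14. Figures used matplotlib 3.10.9 in Python 3.11.15.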

Additional observations from a re-analysis of the deposited data

Results flagged for a closer look

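For 7 results among the named genes, the ID3 libraries and another virus group moved in opposite directions from GFP, and both moves and the direct difference passed edgeR's test with Benjamini-Hochberg adjustment. ID3 mRNA was above GFP in ID3 libraries (0.49, log2) and below it in ID1 libraries (-0.28), a difference of 0.76 (edgeR adjusted p = 1.13e-07). LCMT1 was above GFP in ID3 (1.52) and below it in ID4 libraries (-0.27), a difference of 1.79 (edgeR adjusted p = 5.94e-13). CFI was above GFP in ID3 (0.94) and below it in ID2 libraries (-0.43), a difference of 1.37 (edgeR adjusted p = 3.75e-07). TNFAIP2, an NF-kB target, was above GFP in ID3 (0.44) and below it in ID2 libraries (-0.80), a difference of 1.24 (edgeR adjusted p = 2.05e-10). HLA-B was above GFP in ID3 (0.35) and below it in ID2 libraries (-0.16), a difference of 0.51 (edgeR adjusted p = 2.53e-07). AKR1C1 and AKR1C2, which can share reads, were above GFP in ID3 (0.44 and 0.42) and below it in ID1 libraries (-0.38 and -0.53), differences of 0.81 and 0.95 (edgeR adjusted p = 1.30e-08 and 3.38e-09). Each pair of values shares the GFP libraries.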

How the results depend on the processing

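The number of genes differing between ID3 and GFP was 3683, and 3404 to 3700 with other count filters, DESeq2, its size factors, limma on the deposited log2 values, library totals or only the 6 libraries. Without chromosomes 6, 8, 10, 12 and 15 it was 2757, with 1353 raised and 1404 lowered (49.1% raised, against 52.8%). A fold threshold of 2 reduced it to 373, and reduced the comparisons with ID1, ID2 and ID4 to 65, 153 and 106 and the particular genes to 16. The rule of the methods for the ID1 signature gave 621 genes, 466 raised and 155 lowered. Leaving out 1 library gave 2889 to 3280 genes against GFP, 631 to 1140 against ID1, 1346 to 2388 against ID2, 823 to 1365 against ID4, 75 to 260 particular genes, 396 to 418 list members, and a log2 fold change of ID3 mRNA of 0.46 to 0.51. The count against ID1 fell by over 1.5 times without ID3 library 1 or 2 (646, 710) or ID1 library 2 or 3 (729, 631), and that against ID4 without ID3 library 1 or 2 (823, 859) or any ID4 library (848, 942, 914). Of 1815 values of the 165 named genes, 1802 kept direction and side of the threshold and 13 lost significance, in RMND1, CCDC18, IL11RA and MT1F with a library left out. Of 840 counts and medians of the gene lists, 83 moved beyond 1.5 times or the spread. Fewer libraries enter each of these fits. Equal replicate numbers of ID3 and GFP correlated at 0.0859, 0.117 and 0.151, and each ID3 library correlated best with its own number, a hint from the data and not the design. In a fit with the number as a replicate block, 3528 genes differed from GFP, 1061 from ID1, 1785 from ID2 and 1287 from ID4, 111 were particular, and ID3 mRNA kept 0.49.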

Other observations

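The 3 libraries of a group limit the precision, and genes below 10 counts were not tested. No protein was measured. Deposited counts cannot separate the viral transcript from the endogenous gene, or genes from antisense or near-identical partners.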
